A study of Mus musculus with 2 samples.

Results

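Fcer2a-negative B cells were taken from 2 single-cell RNA libraries of neonatal mouse mesentery, one labelled control and one Flcn iΔEC. Members were selected on raw UMIs (unique molecular identifiers, 1 per captured mRNA molecule) of each cell: at least 2000 UMIs, at most 10% mitochondrial UMIs, no Cdh5 UMI, at least 3 Cd79a UMIs, at least 1 Ms4a1 UMI, no UMI of Cd3d, Cd3e or Cd3g, no Fcer2a UMI, and no more than 2 UMIs of Mki67 and Top2a together. The rule kept 694 of 6814 barcodes in the control library and 639 of 4459 in the Flcn iΔEC library, 1333 of 11273 in all. Each library was a pool of 3 mice at postnatal day 8. In the Flcn iΔEC mice a tamoxifen-inducible Cre recombinase under the endothelial Cdh5 promoter (Cdh5-BAC-CreERT2) was combined with floxed Flcn alleles. Flcn encodes folliculin, and the Cre driver is not designed to act in B cells. The labels give the strain as C57BL/6, after repeated crosses to C57BL/6 J in the study's methods, and 40 µg of 4-hydroxytamoxifen was given under the skin at postnatal days 2, 3.5, 5 and 6.5. The genotype of the control mice was not given in the sources used here. Cells were enriched on beads for CD31, an endothelial protein that lymphocytes also carry. With 1 library per group no test between groups was possible. Intervals are 95% and cover counting error only.

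Fcer2a encodes CD23, the low-affinity IgE receptor. On mouse B cells it marks the recirculating follicular population and part of the transitional cells, whereas marginal zone B cells, B-1 cells and the youngest transitional cells carry little of it. B-1 cells arise early in life, seed the body cavities and make much of the natural IgM, and they are known for high IgM, low IgD, and expression of genes such as Zbtb32, Bhlhe41, Cd9 and Anxa2. Follicular B cells carry high IgD and MHC class II, with which they present antigen to T cells. A cell with no Fcer2a UMI can also be a cell whose few Fcer2a transcripts were not captured, so the members were compared throughout with the Fcer2a-positive B cells of the same library, which met every other limit and held at least 1 Fcer2a UMI (1357 control and 570 Flcn iΔEC cells). The rule used Fcer2a and the other genes named above, which are therefore not results. T cells (at least 3 Cd3 UMIs, no Cd79a UMI; 2508 and 1144 cells) served as the background for free RNA.

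The label held against the markers. Ms4a1 (CD20), whose presence the rule required, was at 1221 CPM (UMIs summed over the cells of a class, scaled to a class total of 1000000) in control and 1142 in Flcn iΔEC members. Ly6d, a surface protein of committed B lineage cells, was at 2325 and 2311 CPM, against 14.4 and 29.5 in T cells. Mzb1, which helps to assemble IgM, was at 601 and 447 CPM, against 2.73 and 3.48 in T cells. Iglc1, a lambda light chain constant gene, was at 1554 and 1285 CPM, against 4.24 and 2.50 in T cells. Ly6d, Mzb1 and Iglc1, the 3 label markers that the rule did not use, were above the Fcer2a-positive cells in both libraries. Of the 13 genes of the pan-B list (Pax5, Ebf1, Cd22 and others), 4 were above and 5 below. Of the genes of early precursors, Dntt had no UMI and Igll1 had UMIs in 1 cell per library, while Vpreb1 was held by 3 control and 5 Flcn iΔEC members and Rag1 by 7 and 6, with 2 control members at 5 or more Rag1 UMIs. The 15 precursor genes summed to 97.4 and 96.5 CPM, against 87.0 and 98.5 in positives. Endothelial markers summed to 169 and 154 CPM, of which Pecam1, which encodes CD31, made up 154 and 133. T cell markers summed to 77.4 and 33.5 CPM (7196 and 5854 in T cells). Their list includes Cd3d, Cd3e and Cd3g, which the rule excluded from members and which chose the T cells. The endothelial list likewise includes Cdh5, for which the rule allowed no UMI. These sums were therefore in part fixed in advance. NK cell markers summed to 4.89 and 2.19, myeloid markers to 155 and 17.0 and dendritic cell markers to 10.5 and 11.5. Erythroid markers summed to 64.2 and 105 (1656 and 2290 in T cells).

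Cells of another type were rare among the members. In the control library 1 member held 319 of the 321 S100a8 UMIs and 402 of the 406 S100a9 UMIs, neutrophil genes, and in the Flcn iΔEC library 1 member held 634 of the 642 Col3a1 UMIs and 496 of the 508 Col1a1 UMIs. The doublet caller marked 1 control member and 0 Flcn iΔEC members. No member's barcode was found in the other library, and 6 barcodes in all were shared. The median member held 7217 UMIs in control and 8443 in Flcn iΔEC, and the median Fcer2a-positive cell 6115 and 7434.

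Fcer2a-negative cells made up 33.8% of the B cells in control (95% interval 31.8 to 35.9%) and 52.9% in Flcn iΔEC (49.99 to 55.7%). Of all cells passing the UMI and mitochondrial limits they were 11.1% and 16.04%, while the B cells as a whole were 32.8% and 30.3%. The membership turned on a single UMI. Cells with 3 Cd79a UMIs, the fewest allowed, numbered 3 in control and 0 in Flcn iΔEC, and 28 and 19 members held 1 Ms4a1 UMI. Just outside the rule lay 288 control and 158 Flcn iΔEC cells with exactly 1 Fcer2a UMI, and the median positive cell held 3 and 2. Fcer2a UMIs were found in 1.12% of control and 0.874% of Flcn iΔEC T cells. Among the positive cells the Fcer2a level was 599 CPM in control and 395 in Flcn iΔEC.

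**Figure D1:**
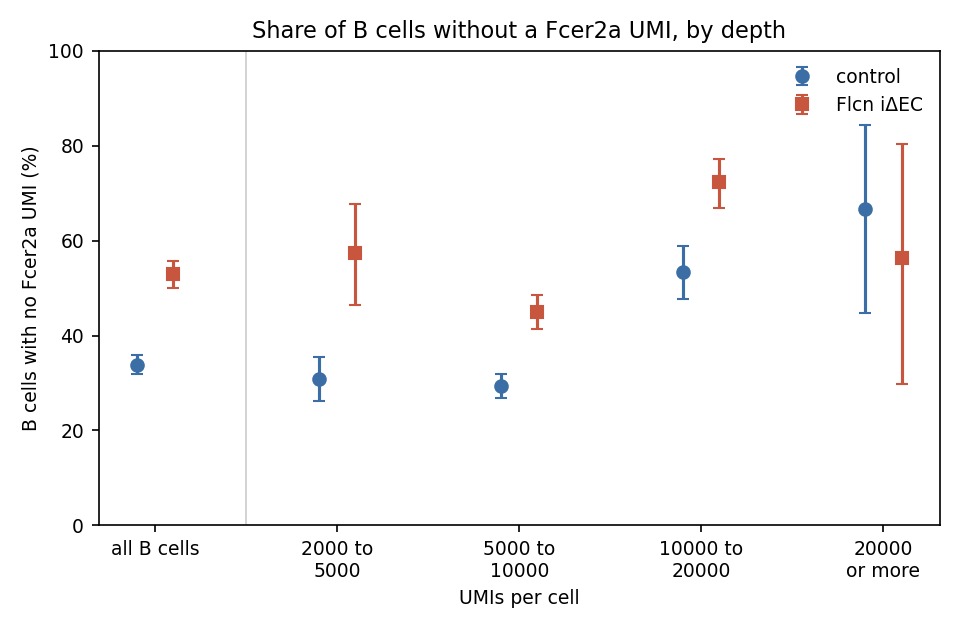
Share of B cells with no Fcer2a UMI (y axis, %) over all B cells and in 4 bins of UMIs per cell (x axis), for the control (circles) and Flcn iΔEC (squares) libraries; bars are exact 95% binomial intervals. The share was not highest in the shallowest cells, and it was higher in Flcn iΔEC in the first 3 bins (57.3% against 30.7%, 44.9% against 29.3%, and 72.3% against 53.4%).

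The share was recomputed by depth, since a deeper cell is more likely to give an Fcer2a UMI. Among B cells of 10000 to 20000 UMIs 53.4% of control (175 of 328) and 72.3% of Flcn iΔEC cells (219 of 303) held none. Among cells of 5000 to 10000 UMIs the shares were 29.3% and 44.9%. Above 20000 UMIs only 24 and 16 B cells remained, with 66.7% and 56.3% negative and overlapping intervals. The B cells set aside as cycling were also mostly negative, 38 of 51 in control and 60 of 88 in Flcn iΔEC.

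To find what the Fcer2a-negative cells carried beyond the rule, summed UMIs were compared with those of the positive cells in each library, over 8294 genes with at least 50 UMIs in each. Genes at least 2-fold higher in both libraries numbered 21 (0.253%), and 3 (0.0362%) were at least 2-fold lower in both. The median log2 ratio of all these genes was 0.01 in control and 0.03 in Flcn iΔEC. In single libraries, 54 genes (0.651%) were at least 2-fold higher and 22 (0.265%) lower in control, and 72 (0.868%) and 15 (0.181%) in Flcn iΔEC. No gene was at least 2-fold higher in one library and lower in the other.

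**Figure D2:**
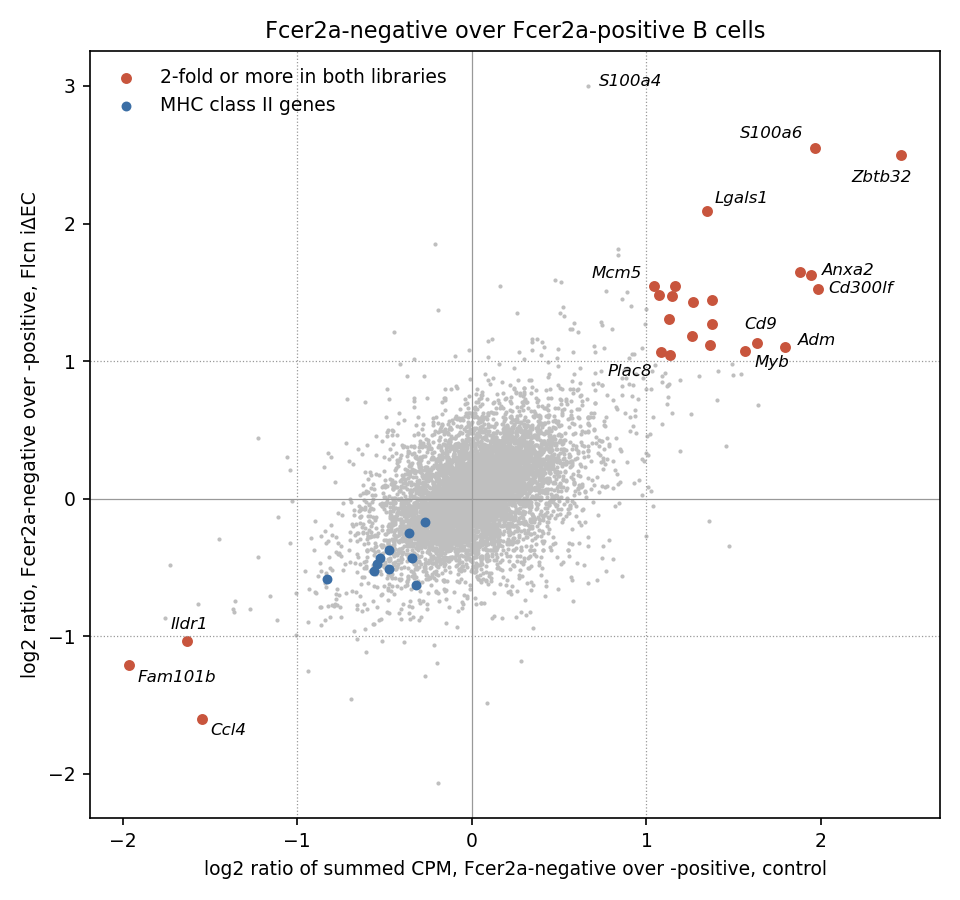
Each point is 1 of 8294 genes; axes are the log2 ratio of summed CPM, Fcer2a-negative over Fcer2a-positive B cells with 1 count added, in the control (x) and Flcn iΔEC (y) libraries, and dotted lines mark 2-fold. The 21 genes at the upper right include Zbtb32 and S100a6, 3 genes lie at the lower left, and all 10 MHC class II genes lie below 0 in both libraries.

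Zbtb32, a transcriptional repressor that restrains memory B cell responses, showed the largest ratio by the mean of both libraries at the limits used here. With at most 5% mitochondrial UMIs its mean log2 ratio was 1.64, below the 2.21 of Myb, and among cells of 5000 to 10000 UMIs 1.43, below the 2.01 of S100a6, against 2.48 for Zbtb32, 2.25 for S100a6 and 1.32 for Myb over all members. It had 148 UMIs in control members and 42 in control positives, and 109 and 14 in Flcn iΔEC. The levels were 24.9 against 4.46 CPM and 18.4 against 3.06 CPM, a ratio of 5.59 (95% interval 3.95 to 8.08) and 6.00 (3.43 to 11.3). Zbtb32 was sparse in the members as well, with a UMI in 12.7% and 10.5% of members. S100a6, a small calcium-binding protein, was far more abundant, at 386 against 98.9 CPM in control and 1018 against 174 CPM in Flcn iΔEC. Its ratio was 3.90 (3.61 to 4.22) and 5.85 (5.43 to 6.30). At a fixed 2000 UMIs per cell S100a6 was detected in 18.2% of control and 36.6% of Flcn iΔEC members, in 7.30% and 13.5% of positives, and in 3.31% and 4.63% of T cells. Unthinned, these shares were 29.5% and 54.0% of members, 15.3% and 27.4% of positives, and 7.02% and 11.98% of T cells. S100a4 differed between the libraries, with a ratio of 1.59 (1.24 to 2.03) in control and 8.13 (6.29 to 10.6) in Flcn iΔEC.

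Several of the other genes encode proteins of the membrane, adhesion and cytoskeleton. Anxa2, a membrane-binding annexin, was at 21.1 against 5.42 CPM in control and 22.1 against 6.99 in Flcn iΔEC (ratios 3.89 and 3.16). Cd9, a tetraspanin found on marginal zone and B-1 cells, was at 68.3 against 22.0 CPM and 43.8 against 19.9 (3.10 and 2.20). Itgb1, the integrin β1 chain, was at 67.8 against 30.9 CPM and 74.8 against 30.2 (2.19 and 2.48). Lgals1, the β-galactoside-binding lectin galectin-1, was at 114 against 45.0 CPM and 144 against 33.7 (2.54 and 4.28). The CD300 family receptor Cd300lf, the cytokine receptor chain Csf2rb and the basement membrane gene Nid1 were also at least 2-fold higher in both. Plac8 was the most abundant of the 21 genes, at 1893 against 863 CPM and 2230 against 1080, and was found in 92.4% and 97.8% of members.

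The proximal promoters of Zbtb32, S100a6 and Anxa2 are shown because these genes had the largest ratios among the 21 genes at the main limits. Each line gives the 250 bases before the RefSeq start site (GRCm38.p6), 5′ to 3′ on the gene's strand. Zbtb32, for which 1 of 2 listed promoters is shown, lies on the minus strand (chr7:30598910-30599159), S100a6 on the plus strand (chr3:90612644-90612893) and Anxa2 on the plus strand (chr9:69453433-69453682). Capitals mark a match to the AP-1 motif TGANTCA, which starts 95 bases before the start site in Anxa2.
Zbtb32: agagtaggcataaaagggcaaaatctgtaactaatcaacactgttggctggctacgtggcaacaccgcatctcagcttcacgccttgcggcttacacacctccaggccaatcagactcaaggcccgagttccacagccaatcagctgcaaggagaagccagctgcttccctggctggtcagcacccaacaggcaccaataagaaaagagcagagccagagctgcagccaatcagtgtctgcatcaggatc
S100a6: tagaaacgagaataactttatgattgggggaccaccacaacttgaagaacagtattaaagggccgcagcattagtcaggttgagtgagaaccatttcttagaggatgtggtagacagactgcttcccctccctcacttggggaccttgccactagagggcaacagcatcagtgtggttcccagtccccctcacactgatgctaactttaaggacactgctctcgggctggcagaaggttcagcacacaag
Anxa2: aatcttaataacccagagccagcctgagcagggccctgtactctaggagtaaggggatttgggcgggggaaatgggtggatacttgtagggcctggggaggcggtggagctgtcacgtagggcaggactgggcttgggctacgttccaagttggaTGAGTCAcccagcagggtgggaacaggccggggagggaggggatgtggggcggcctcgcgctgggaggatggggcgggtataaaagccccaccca

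Of the 21 genes higher in the members, 17 had a promoter in the RefSeq table. On either strand TGANTCA was held by 1 of them (Anxa2), the E-box CACGTG by 1 (Ass1), and the octamer ATGCAAAT and the PU.1 motif GAGGAAGT by 0. Of all 27025 genes with such a promoter, 7.82%, 6.86%, 1.81% and 2.79% held these motifs, respectively, against 5.88% of the 17 genes for each of the first pair.

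Others of the 21 belong to metabolism, signalling and the cell cycle. Adm, which encodes the vascular peptide adrenomedullin, was at 65.7 against 18.9 CPM in control and 48.7 against 22.5 in Flcn iΔEC (ratios 3.48 and 2.16). Ass1, an enzyme of arginine synthesis, was at 49.2 against 18.9 CPM and 75.3 against 27.5 (2.60 and 2.74). Myb, a transcription factor of immature haematopoietic cells, was at 26.8 against 9.03 CPM and 13.6 against 6.34 (2.97 and 2.15). Mcm5, a subunit of the replicative helicase, was at 20.2 against 9.77 CPM and 24.1 against 8.08 (2.07 and 2.98), although cells rich in Mki67 and Top2a had been set aside. Sox5, Alpl, Oosp1, Eps8, Rbm47, Atxn1 and Gm37065 made up the rest, none above 25 CPM in either library.

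The 3 lower genes were Fam101b, Ccl4 and Ildr1. Ccl4, a chemokine that activated B cells secrete to attract T cells, was at 41.1 CPM in control members against 121 in positives and at 43.8 against 133 in Flcn iΔEC, ratios of 0.341 (0.296 to 0.392) and 0.329 (0.284 to 0.381). Its UMIs came from few cells, 8.79% and 7.36% of members against 16.3% of positives in both libraries.

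The comparison was repeated within a band of depth. Among cells of 5000 to 10000 UMIs only (381 against 921 control and 360 against 441 Flcn iΔEC cells) 6 of 7101 genes were at least 2-fold higher in both libraries and 2 were lower. Of the 21 genes, 8 kept enough UMIs to be compared there and 2, S100a6 and Lgals1, remained past 2-fold. In direction, 20 of the 21 stayed above 1 in both libraries, and all 3 lower genes stayed below. The cells of the band were among those used to pick these genes, so this agreement was partly fixed in advance. With every cell given equal weight, 20 genes were higher and 4 lower.

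Genes of marginal zone and B-1 cells were mostly higher in the members. Of 19 genes 13 had enough UMIs, 11 of them were above 1 in both libraries and 0 below, where 37.7% of all 8294 genes were above 1 in both and 30.4% below. The median log2 ratio was 0.89 in control and 0.75 in Flcn iΔEC, and Cd9, Zbtb32 and Anxa2 passed 2-fold in both. By the mean of both libraries the median was 0.83, and 0.43 among cells of 5000 to 10000 UMIs. Bhlhe41, a repressor needed for B-1a cells, was at 112 against 54.6 CPM (ratio 2.05) and 142 against 94.4 (1.51). Ahnak, a large scaffold protein, was at 179 against 94.7 CPM (1.89) and 165 against 97.9 (1.68). Cd5, the surface marker of B-1a cells, was at 13.8 against 8.18 CPM and 7.75 against 3.496. Ctla4, an inhibitory receptor known from T cells and B-1a cells, was at 9.27 against 1.70 and 3.20 against 0.87. With 19 UMIs in Flcn iΔEC members, Ctla4 fell below the minimum in that library and is not among the 13 genes. Cd5 and Ctla4 are also T cell genes, with Cd5 at 177 and 102 CPM in T cells. The T cell markers summed to 77.4 CPM in control members and 63.9 in positives, and to 33.5 and 32.8 in Flcn iΔEC. Of these, Trbc1 was at 4.89 against 6.27 CPM and 2.53 against 3.71, and Trbc2 at 16.5 against 16.3 and 4.21 against 4.15, and the part of T cell RNA in Cd5 and Ctla4 was not tested. A UMI of Cd5 or Ctla4 was held by 13.0% of control and 7.36% of Flcn iΔEC members.

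Follicular genes were mostly lower. Of 12 genes compared, 8 were below 1 in both libraries and 3 above, with none past 2-fold in both. Ighd, the heavy chain of IgD, was at 278 against 534 CPM (ratio 0.521, 0.493 to 0.551) in control and 253 against 473 CPM (0.536, 0.501 to 0.573) in Flcn iΔEC. Cr2, the complement receptor CD21 that is high on marginal zone and follicular cells, was at 24.8 against 47.7 CPM and 11.5 against 27.5. Icosl, the ligand of the T cell co-stimulator ICOS, was at 20.9 against 50.8 CPM and 23.8 against 41.5. Gpr183, the receptor that positions B cells at follicle edges, was at 135 against 242 CPM and 143 against 223. S1pr1, the receptor for egress from tissue, went the other way, at 130 against 115 CPM and 134 against 112. The receptor Ccr6, from the list of homing receptors, was at 26.1 against 48.0 CPM and 43.0 against 74.1.

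All 10 MHC class II genes were lower in both libraries, though none reached 2-fold. The median log2 ratio was -0.47 in control and -0.45 in Flcn iΔEC. H2-Aa was at 1629 against 2371 CPM (ratio 0.687, 0.671 to 0.704) and 1963 against 2725 CPM (0.720, 0.702 to 0.739). Ciita, the transactivator that switches these genes on, was at 31.5 against 56.3 CPM and 33.5 against 50.3. In T cells H2-Aa was at 32.0 and 100.1 CPM.

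**Figure D3:**
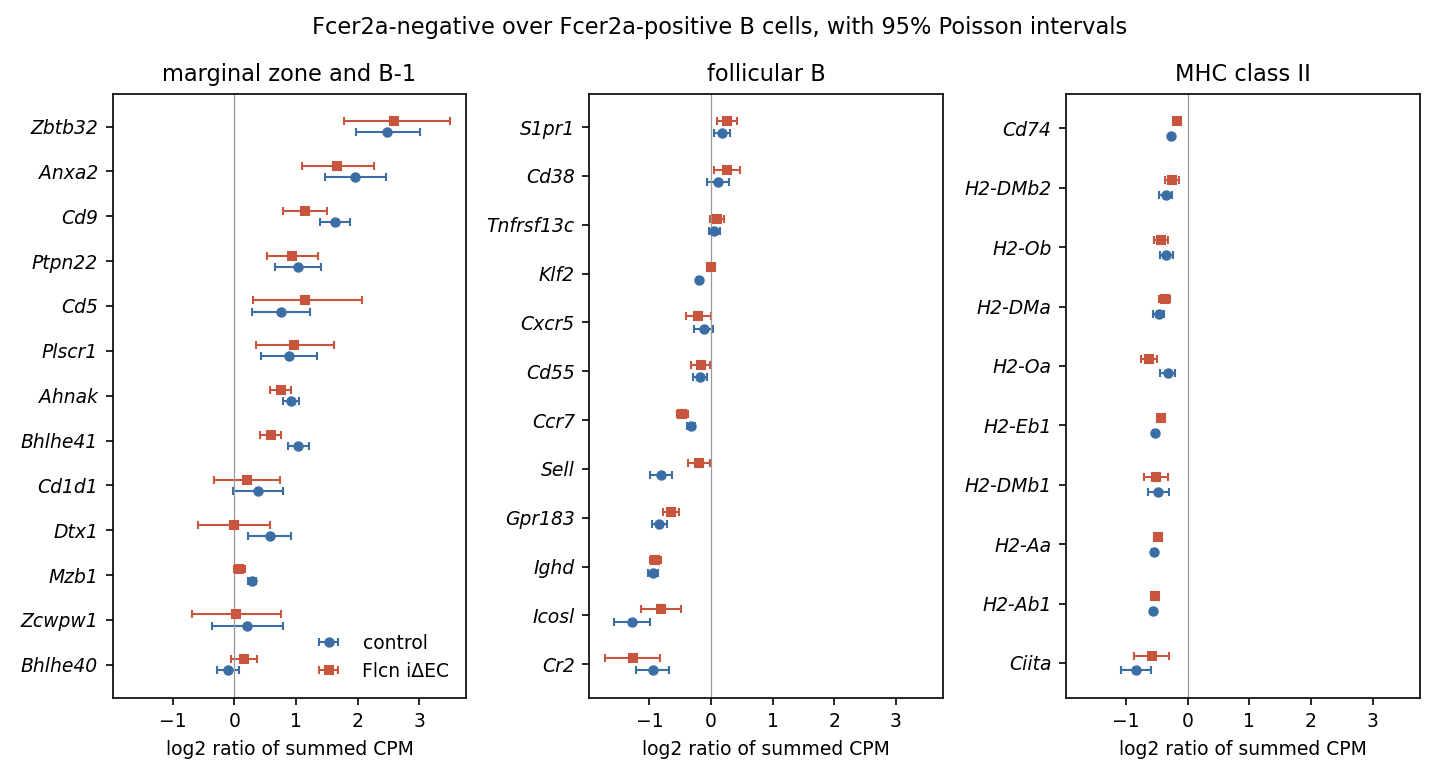
Ratio of summed CPM (x axis, log2, no count added) of Fcer2a-negative over Fcer2a-positive B cells for the compared genes of 3 lists (y axis), in control (circles) and Flcn iΔEC (squares); bars are 95% intervals for counting error. Marginal zone and B-1 genes lie mostly right of 0, with Zbtb32 farthest; 8 of 12 follicular genes and 10 of 10 MHC class II genes lie left of 0 in both libraries.

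The other B cell lists were counted in the same way. Among 22 genes of B cell receptor signalling 9 were above and 5 below 1 in both libraries, with medians of 0.05 and 0.01 on the log2 scale. Among 26 B cell transcription factors 5 were above and 16 below, Myb being the only one past 2-fold. Bach2, which restrains plasma cell differentiation, was at 84.3 against 128 CPM and 74.8 against 102, and Zfp318, a factor required for IgD splicing, at 49.1 against 74.6 and 61.8 against 108. Of 18 activation genes 4 were above and 11 below. Of 12 transitional genes 5 were above and 5 below: Cd24a was at 322 against 232 CPM and 227 against 171, while Cd93, the marker of the youngest transitional cells, was at 12.5 against 14.98 and 16.5 against 20.1. In the remaining B cell lists the numbers above and below were 5 and 1 of 7 plasma cell genes, 1 and 1 of 2 germinal centre genes, 1 and 2 of 5 precursor genes, 4 and 7 of 14 homing receptors, 5 and 8 of 14 cytokine receptors, 5 and 1 of 7 innate sensing genes, 7 and 4 of 12 survival genes, 4 and 3 of 8 interferon-stimulated genes and 1 and 3 of 8 folliculin pathway genes.

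The heavy chains were nearly all IgM. Ighm UMIs were found in 693 of 694 control and 639 of 639 Flcn iΔEC members, with a median of 24 and 22 per cell, against 16 and 14 in positives. Ighm was also found in 65.6% and 62.2% of T cells, with a median of 1. Ighd was found in 37.8% and 39.6% of members thinned to 2000 UMIs, against 61.3% and 55.8% of positives and 1.12% and 0.962% of T cells. Without thinning these were 71.9% and 76.8% of members and 89.2% and 91.8% of positives. Switched isotypes were rare. Ighg2b was held by 5 control and 8 Flcn iΔEC members, up to 10 and 20 UMIs in 1 cell, by 2 and 9 positives, up to 2 UMIs in each library, and by 0 T cells. Ighg3 was held by 26 and 18 members, by 12 and 9 positives and by 1 T cell in all. Ighg1 was found in 0 of 694 control members, where a floor of 3 cells allows up to 0.432% of cells with a UMI, and in 1 Flcn iΔEC member. This limits the cells with a captured UMI, not the cells expressing the gene. Jchain, which joins IgM into pentamers, was held by 18 and 14 members.

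UMIs of both kinds of light chain constant gene were found in most members, as in most positives. Such UMIs do not show which light chain protein a cell makes. In cells with at least 10 light chain UMIs, the median share of lambda (Iglc1, Iglc2 and Iglc3) was 29.5% in control and 26.8% in Flcn iΔEC members, and 26.9% and 25.9% in positives. After thinning to 2000 UMIs, at least 90% of light chain UMIs were kappa (Igkc) in 14.97% of control and 18.3% of Flcn iΔEC members and lambda in 7.32% and 7.14%, and 77.7% and 74.6% of members lay between. In positives 82.0% and 74.5% lay between. T cells held 0.214 and 0.114 Igkc UMIs and 0.117 and 0.049 lambda UMIs per cell, against 60.9 and 50.5 Igkc and 33.8 and 25.5 lambda UMIs per member. The T cells had been chosen to hold no Cd79a UMI, and the part of free RNA in the mixed shares was not tested. Iglc1 was higher in members than in positives, at 1554 against 979 CPM and 1285 against 850 CPM. Iglc2 was at 1514 against 1333 and 807 against 755. How well the reads of the lambda constant genes were told apart was not tested.

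The members were not uniform, and S100a6 was among the genes that varied most between them. Over the 1333 members thinned to 2000 UMIs, with both libraries pooled, the largest variance-to-mean ratios belonged to Iglc1 (10.2), Apoe (8.53), Igkc (7.78), Malat1 (7.69), S100a6 (7.14) and Hspa1a (6.53), followed by Glycam1, Iglc2, Sparc, Actb, Ccl4, Crip1, Plac8, Hsp90aa1 and Tmsb4x. Pooling adds the difference between the libraries: within control and within Flcn iΔEC the ratio was 13.4 and 5.21 for Iglc1, 5.85 and 7.39 for S100a6, 1.25 and 5.11 for Hspa1a, and 1.11 and 6.96 for Sparc. Sparc and Glycam1 rested in part on single cells, which held 203 of 359 Sparc UMIs in Flcn iΔEC and 28 of 84 Glycam1 UMIs in control. S100a6 was absent from 489 control and 294 Flcn iΔEC members and reached 116 and 213 UMIs in 1 cell. The members were therefore divided by S100a6, a division chosen after its values were seen. Members with 5 or more S100a6 UMIs numbered 102 in control (14.7%) and 198 in Flcn iΔEC (31.0%), against 3.02% and 6.49% of positives and 1.95% and 3.15% of T cells. They were deeper, with a median of 10347 and 10891 UMIs, than members with none (6307 and 6903).

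S100a6-high members differed from the other members in many of the genes described above. Of the 20 genes other than S100a6 that were higher in the negative cells, 9 were at least 2-fold higher in S100a6-high members in both libraries and 18 were above 1. S100a6 and these 20 genes were picked from the same contrast, and S100a6-high cells were a larger share of members than of positives. The overlap is therefore in part a result of that choice. Over 6370 genes with enough UMIs, 49 (0.769%) were at least 2-fold higher and 30 (0.471%) at least 2-fold lower in both libraries than in members without S100a6. S100a4, the neighbouring gene of the same family, was at 85.5 against 2.36 CPM in control (ratio 36.1, 18.3 to 81.3) and 275 against 3.59 CPM in Flcn iΔEC (76.6, 38.6 to 178). Zbtb32 was at 80.4 against 9.72 CPM (ratio 8.27) and 41.1 against 2.25 (18.3), and was found in 47.1% and 27.8% of S100a6-high members against 5.52% and 1.36% of those with none. Anxa2 was at 71.9 against 7.62 CPM and 46.3 against 4.04. Crip1, a LIM domain protein, was at 2639 against 720 CPM and 2126 against 637. Ass1, Lgals1, Nid1, Ly6a, Lmna, Vim, Itgb1, Itgb7 and Cd9 were higher in both as well, and 6 of 13 marginal zone and B-1 genes passed 2-fold. List genes here needed 20 summed UMIs in each library, where the 6370 genes needed 50. Ctla4 was at 3.38 against 8.93 CPM and 3.03 against 4.04, and Bhlhe41 at 173 against 93.3 and 145 against 134. Ctla4 rested on few UMIs, 4 against 34 in control and 7 against 9 in Flcn iΔEC. A UMI of Ctla4 or Cd5 was held by 20.6% of S100a6-high members against 10.4% of those with none in control, and by 11.1% against 4.76% in Flcn iΔEC, without thinning of the deeper S100a6-high cells.

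**Figure D4:**
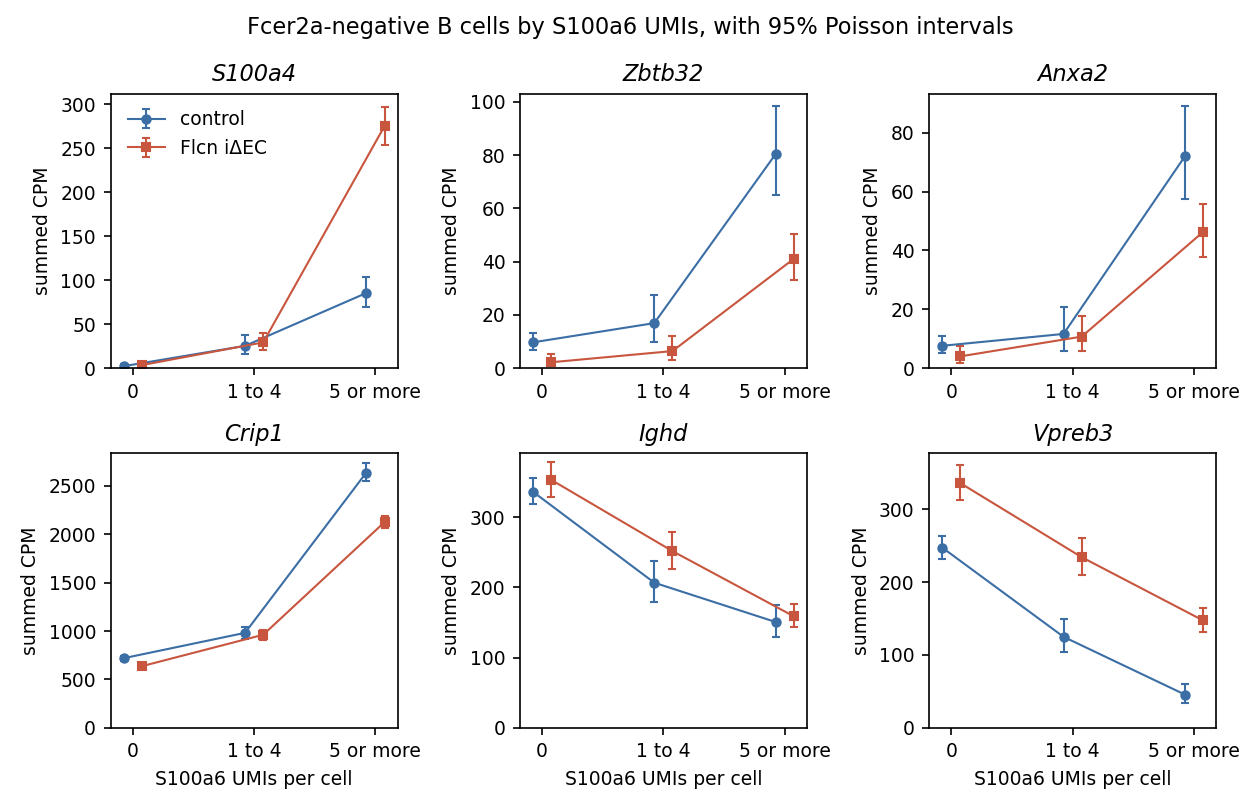
Summed CPM (y axis, from 0) of 6 genes in Fcer2a-negative B cells with 0, 1 to 4 or 5 or more S100a6 UMIs (x axis), in control (circles) and Flcn iΔEC (squares); bars are 95% Poisson intervals and lines join the groups of a library. S100a4, Zbtb32, Anxa2 and Crip1 are highest and Ighd and Vpreb3 lowest in the cells with 5 or more, in both libraries.

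Of 12 transitional genes, 1 was above and 9 below 1 in S100a6-high members in both libraries, and of 12 follicular genes 5 were above and 4 below, where 29.4% of all 6370 genes were above and 35.0% below. Vpreb3, which binds nascent light chains and is high in immature B cells, was at 45.7 against 247 CPM in control and 147 against 336 in Flcn iΔEC. Cd93 was at 4.23 against 16.3 CPM and 7.78 against 24.7. Ighd was at 151 against 336 CPM and 159 against 353, Bach2 at 40.6 against 103 and 39.8 against 108, and Cd72, a co-receptor that dampens B cell receptor signals, at 25.4 against 106 and 34.2 against 98.8. Sox4, Zfp318, Icosl, Akap12 and Apoe were lower in both too. All 10 MHC class II genes were below 1 in both libraries, with medians of -0.51 and -0.75. Among members of 5000 to 10000 UMIs only, Zbtb32 was at 89.1 against 4.27 CPM in control (46 against 277 cells) and had 12 against 0 UMIs in Flcn iΔEC (75 against 195 cells), Anxa2 was at 73.8 against 10.1 CPM and 17.3 against 1.47, Crip1 at 2560 against 892 and 1963 against 620, and Vpreb3 at 56.0 against 273 and 198 against 380. Cd9 had a ratio of 3.85 (2.50 to 5.89) there in control and of 1.53 (0.82 to 2.81) in Flcn iΔEC, an interval that holds 1. Within the band the S100a6-high members were still deeper than those with none. Their medians were 8682 against 6409 UMIs in control and 8494 against 6872 in Flcn iΔEC.

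The contrast with Fcer2a-positive cells was repeated without S100a6-positive cells. Among B cells with no S100a6 UMI, 3 of 6915 genes (0.0434%) were at least 2-fold higher in Fcer2a-negative cells in both libraries, Atp1b1, Mcm5 and Myb. Another 3 (0.0434%) were lower, Ccl4, Klk8 and Dnajb2. Leaving cells out also removed UMIs. In Flcn iΔEC, Zbtb32 and Anxa2 fell below the minimum of summed UMIs and were not among the 6915 genes. The count of higher genes therefore does not show whether these genes stayed past 2-fold. Myb was at 27.3 against 9.61 CPM in control and 17.96 against 8.66 in Flcn iΔEC. Of 12 marginal zone and B-1 genes 9 were above 1 in both libraries and 0 below, with none past 2-fold in both. Of all 6915 genes 39.1% were above and 23.4% below. The list's median log2 ratio was 0.74 in control and 0.07 in Flcn iΔEC, against 0.02 and 0.08 over all 6915 genes. In Flcn iΔEC the list median was thus not above that of all genes. All 10 MHC class II genes were below 1 in both libraries (medians -0.40 and -0.27). Ighd was at 336 against 577 CPM and 353 against 519, Plac8 at 1709 against 791 and 1669 against 981, and Cd24a at 346 against 229 and 295 against 174. Vpreb3 was at 247 against 207 CPM and 336 against 180. Vpreb3 was thus above the positive cells in members without S100a6 and lowest in S100a6-high members.

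S100a6 and Zbtb32 are given by the number of Fcer2a UMIs as a description, since Fcer2a chose the members and both genes were picked for their level in them. In control, cells with 0, 1 to 2, 3 to 5 and 6 or more Fcer2a UMIs had S100a6 at 386, 183, 66.9 and 27.6 CPM, and in Flcn iΔEC at 1018, 218, 136 and 124 CPM. Zbtb32 was at 24.9, 6.33, 5.05 and 1.17 CPM in control and at 18.4, 3.57, 2.66 and 2.40 in Flcn iΔEC. Ighd was at 278 CPM in control cells with 0 and 475 in those with 1 to 2 Fcer2a UMIs, and at 253 and 443 in Flcn iΔEC.

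The comparison of the Flcn iΔEC with the control library asked how the members differed when the endothelium lacked folliculin. Of 8625 genes with at least 50 UMIs over both libraries, 92 (1.07%) were at least 2-fold higher and 93 (1.08%) at least 2-fold lower in Flcn iΔEC members, and the median log2 ratio of all genes was -0.09. The same comparison was made in cells outside the members: 44 of the 92 were also at least 2-fold higher in Fcer2a-positive B cells and 33 in T cells, and 34 and 19 of the 93 were lower. The share of all compared genes past 2-fold in those cells was not taken, so the overlaps are given as counts only. Both sets include sex-linked genes. The libraries differed in sex-linked genes, with 0 Xist UMIs in control and 7101 in Flcn iΔEC members, and 728 and 0 UMIs of the Y-linked Ddx3y and 685 and 0 of Eif2s3y, so sex, library and Flcn deletion cannot be told apart. Flcn itself was at 26.1 CPM in control and 24.8 in Flcn iΔEC members (155 and 147 UMIs, ratio 0.948, 0.751 to 1.20).

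Heat shock genes were among those with the highest ratios in Flcn iΔEC members. Hspa1a, an inducible HSP70 chaperone, went from 21.4 to 1393 CPM (ratio 65.1, 54.6 to 78.2) and from a UMI in 12.2% to 83.9% of members. Its paralog Hspa1b, with which it shares near-identical sequence, went from 16.2 to 471 CPM, and Hsph1, Dnaja1 and Hsp90aa1 from 28.5 to 163, 371 to 992 and 867 to 2278 CPM. Positive cells and T cells differed in the same way, with a Hspa1a UMI in 12.3% and 82.3% of positives and in 13.8% and 80.2% of T cells.

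S100a4 and S100a6 differed within the members more than outside them. S100a4 went from 22.6 CPM in control to 115 in Flcn iΔEC members (ratio 5.11, 4.24 to 6.20), while positives held 14.2 CPM in both libraries (0.998, 0.730 to 1.35) and T cells 30.5 and 54.7 CPM. S100a6 went from 386 to 1018 CPM in members (2.64, 2.51 to 2.77), from 98.9 to 174 in positives (1.76, 1.60 to 1.94) and from 51.9 to 96.1 in T cells (1.85, 1.70 to 2.02). In members with at most 5% mitochondrial UMIs the log2 ratio was 1.62 for S100a4 and 2.10 for S100a6, against 2.34 and 1.40 over all members. The share of S100a6-high members was 14.7% and 31.0%. Zbtb32 was not higher in Flcn iΔEC, at 24.9 and 18.4 CPM (0.736, 0.569 to 0.949), and within S100a6-high members it was found in 47.1% of control and 27.8% of Flcn iΔEC cells.

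**Figure D5:**
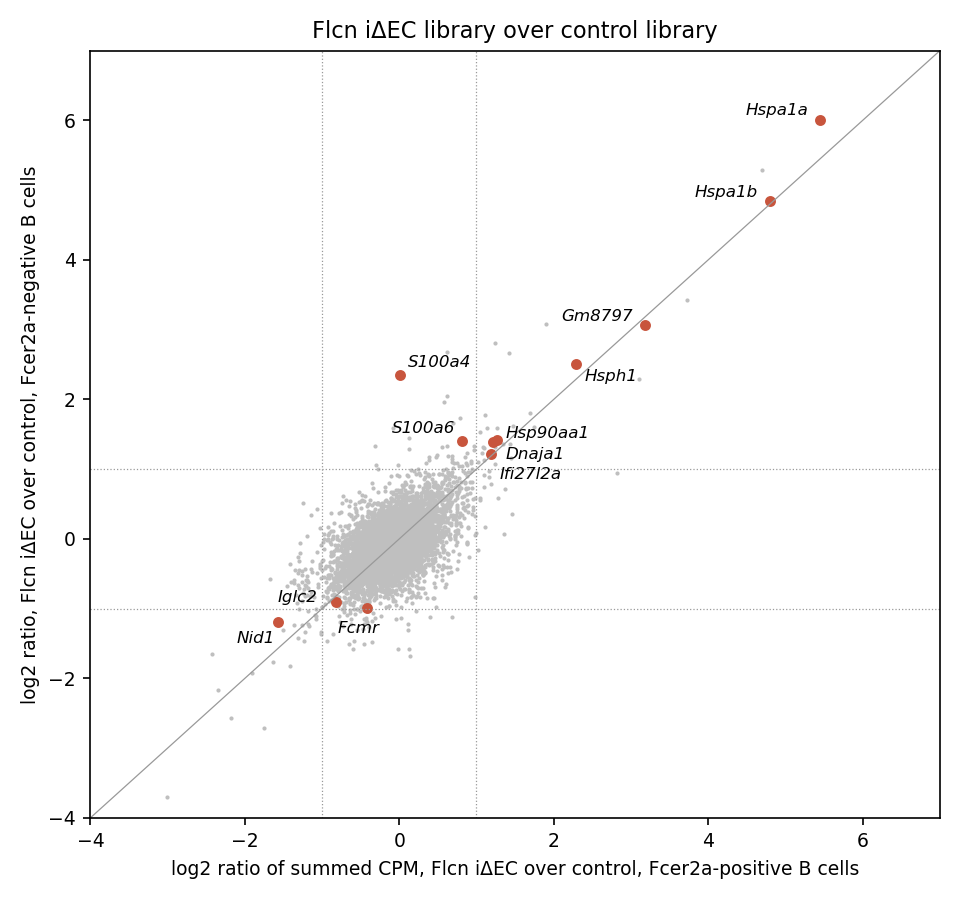
Each point is a gene; axes are the log2 ratio of summed CPM, Flcn iΔEC over control with 1 count added, in Fcer2a-positive (x) and Fcer2a-negative (y) B cells; Xist and Y-linked genes are left out, the diagonal marks equal ratios and dotted lines 2-fold. The plot holds 8489 genes and 4 lie outside its axes. Hspa1a and Hspa1b lie near the diagonal, S100a4 lies well above it.

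Of 10 interferon-stimulated genes compared in members, 4 were at least 2-fold higher in Flcn iΔEC and 0 lower. Of all 8625 genes compared, 1.07% were higher and 1.08% lower. The median log2 ratio was 0.79 in members and 0.87 in positives, and 0.20 in members with at most 5% mitochondrial UMIs. Summed over the 16 genes of the list, of which Ly6e gave the most UMIs, the level was 1503 CPM in control and 1537 in Flcn iΔEC members, 1511 and 1395 in positives, and 815 and 1222 in T cells. Ifi27l2a went from 156 to 364 CPM in members and from 106 to 242 in positives. Mx1, an antiviral GTPase, had 7 UMIs in control and 64 in Flcn iΔEC members, held by 6 and 36 cells. Irf7, a regulator of interferon genes, had 23 and 73. Ifit3 had 1 and 44 UMIs, in 1 and 23 cells, below the minimum for comparison.

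Among genes of at least 100 CPM in 1 library, 3 were at least 2-fold lower, namely Ddx3y, Eif2s3y and Gm43603, an antisense transcript that went from 140 to 68.2 CPM in members and from 182 to 79.8 in positives. Fcmr, the receptor for IgM, went from 417 to 210 CPM in members (ratio 0.503, 0.469 to 0.538) and from 371 to 277 in positives (0.747, 0.700 to 0.796). Nfatc1, a calcium-dependent transcription factor active in B-1a cells, went from 106 to 53.6 CPM in members and from 70.4 to 49.8 in positives. Iglc2, Rilpl2 and Anxa6 were lower by less. Nid1, one of the genes that marked the members, went from 33.2 to 14.5 CPM in members and from 14.8 to 4.81 in positives, and Cr2 from 24.8 to 11.5 in members and from 47.7 to 27.5 in positives. No list of B cell genes had a median past 1 on the log2 scale. MHC class II genes had a median of 0.22 in members and 0.17 in positives, with none of 10 past 2-fold, and folliculin pathway genes one of -0.16, with none of 8 past 2-fold. Markers of other cells followed the single cells named above: all 5 fibroblast genes compared were at least 2-fold higher, from 63 to 2016 UMIs summed over the list, and without the 2 cells rich in fibroblast or neutrophil genes the log2 ratio of Col3a1 was -0.29. T cell markers were at 77.4 and 33.5 CPM in the members, and their part in these differences was not tested.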

How the data were processed

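Cells were enriched with CD31 beads and sequenced with Chromium 3′ v3 chemistry. The deposited files hold raw UMI counts per gene and barcode, which the authors made with Cell Ranger 3.0 on mm10, per the labels; no normalization had been applied. UMIs were read per library (64639756 and 60805779 in all), and cells were classed by the limits in the report. UMIs were summed per class and divided by the class total to give CPM. Log2 ratios had 1 count added to each sum; ratios carry exact conditional Poisson intervals and shares Clopper-Pearson intervals. Genes needed 50 summed UMIs, and 2-fold was the call. Shares of cells with a gene were also taken after thinning each cell to 2000 UMIs. Doublets were called with Scrublet in scanpy 1.11.5 and kept. The comparison was also run on simulated Poisson counts, with changes larger than the call needs planted in genes well above the minimum. These counts had no spread between cells or mice. They do not show how often calls at 2-fold and 50 UMIs are wrong. Named genes were the members of the lists, the 12 largest mean ratios each way between classes, the 8 largest each way between libraries at 100 CPM or more, and the 15 most variable genes; the rest of the 21 and the genes named between S100a6 groups were named after their values were seen. The members, lists and divisions were chosen with earlier results of these data known. Without replicates, no p-value was computed.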

Additional observations from a re-analysis of the deposited data

How the results depend on the processing

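The results were recomputed under 20 other settings, 1 of them, the removal of the 2 cells rich in fibroblast or neutrophil genes, chosen after seeing the data. Of 102 list medians, 100 stayed within the 95% interval of the median over the list's genes. With at most 5% mitochondrial UMIs the members numbered 209 in control and 208 in Flcn iΔEC, 5.10% and 7.56% of passing cells and 36.7% of control B cells; Ighd was found in 31.6% of control members, the lambda and the mixed share of Flcn iΔEC members were 10.7% and 69.2%, 6 genes were lower in the members, and the MHC class II median was -0.57. With cells of 5000 to 10000 UMIs only, 6 genes were higher and the MHC class II median was -0.30. There the marginal zone and B-1 median was 0.43, against 0.83 at the main limits, and the follicular median -0.07, against -0.28. With at least 5000 UMIs members were 10.3% of control passing cells; with no Mki67 or Top2a UMI 9.52% and 13.4%, and with no cell cycle limit 17.5% in Flcn iΔEC. Taking only positives with 3 or more Fcer2a UMIs gave 5 lower genes. A minimum of 20 summed UMIs gave 41 higher and 5 lower genes against the positives, and 228 and 220 between libraries; a minimum of 100 gave 61 and 49 between libraries. Light chain and Ighd shares moved with thinning. At 1000 UMIs, 18.8% of control and 23.9% of Flcn iΔEC members were kappa, 74.1% and 67.1% mixed, and 25.1% and 23.8% held Ighd. At 5000 UMIs, 9.28% and 12.8% were kappa, 5.25% of control members lambda, 85.5% and 80.8% mixed, and 57.5% and 63.4% held Ighd. Unthinned, 10.4% and 11.3% were kappa, 83.5% and 81.4% mixed, and 71.9% and 76.8% held Ighd. Of the ratios of named genes, 576 lay within their counting interval and 38 moved. Some mean log2 ratios of members over positives left their counting interval and shifted by over 1.5-fold. With at most 5% mitochondrial UMIs these were Myb 2.21, Zbtb32 1.64, S100a6 1.45 and Anxa2 1.16. With 5000 to 10000 UMIs they were Zbtb32 1.43, Lgals1 1.09, Anxa2 1.07, Myb 0.56, Mcm5 0.44 and Oosp1 0.32. Cd300lf also shifted by over 1.5-fold there, from 1.75 to 1.11, but stayed within its counting interval. With positives of 3 or more Fcer2a UMIs S100a6 was at 2.95, above Zbtb32 at 2.73. Between libraries the log2 ratio of S100a4 was 1.62 and that of S100a6 2.10 with at most 5% mitochondrial UMIs, against 2.34 and 1.40. Col3a1 turned from higher to lower in Flcn iΔEC members (log2 ratio -0.29) without the 2 cells. No paired analysis was possible because each group is 1 library. Depth limited the genes below 50 summed UMIs, Fcer2a itself among the low transcripts: a cell counted as negative may hold uncaptured transcripts. Pooling of 3 mice per library left no measure of the spread between mice.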
